A study of Mus musculus with 4 samples.

Results

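The genes described here are 33 genes of protein folding and stress in the endoplasmic reticulum (ER). They were chosen by gene symbol, as ER chaperones, disulphide isomerases, degradation factors and sensors of the unfolded protein response. All 33 were found among the 19938 genes that the array's one-gene probe sets name. RNA came from mouse embryonic fibroblasts (MEFs), either wild type or labelled as knockout for NFAT5, also called TonEBP, a transcription factor of the response to hypertonic medium. Cells of each genotype spent 20 hours in isotonic medium or in medium brought to 450 mosmol/kg with NaCl. For each of these 4 groups, RNA of 4 samples was pooled onto a single Affymetrix Mouse Gene 1.0 ST array. The sources used here do not give the isotonic osmolality, the deleted part of Nfat5, the strain or the number of embryos behind each genotype. With 1 array per group there is no spread between replicates, so no statistical test was made and each difference describes these 4 pools.

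Proteins that enter the secretory pathway fold in the ER, where Hsp70 and Hsp90 family chaperones, lectins and disulphide isomerases bind them. Chains that fail to fold are passed back across the membrane and degraded, a route called ER-associated degradation. When unfolded chains build up, the membrane sensors encoded by Ern1 (IRE1), Eif2ak3 (PERK) and Atf6 start the unfolded protein response. IRE1 splices the Xbp1 messenger, and the XBP1 and ATF6 factors then raise chaperone and degradation genes through a promoter element known as the ER stress response element (ERSE). Fibroblasts carry a heavy folding load because they secrete collagens and other matrix proteins.

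The ERSE is shown first because it is a feature that many members share. Members were chosen by symbol and not by sequence, but as genes of a response that acts through this element. Their share of matches is therefore not independent of the choice. RefSeq promoter windows (GRCm38.p6, 250 bases before to 50 after a gene's start) were found for 28 of the 33 genes; Hyou1, Hspa13, Manf, Atf6 and Derl1 had no entry. Both strands were searched for the exact letters CCAAT and CCACG with 9 bases of any kind between them. Of the 28 members 9 held a match, against 0.119% of all 32851 windows in the table. The shorter ERSE-II, ATTGG and CCACG with 1 base between them, was matched in Herpud1 and Dnajb11, against 0.0365% of windows, and no member held both elements. In Dnajb11 that match lay after the gene's start. Each sequence below is read 5′ to 3′ on the strand that holds the match, with the fixed letters of the element in capitals and 20 bases on either side.
Hspa5, chr2:34772005-34772063, plus strand: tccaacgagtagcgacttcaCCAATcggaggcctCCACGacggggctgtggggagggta
Hsp90b1, chr10:86705513-86705571, plus strand: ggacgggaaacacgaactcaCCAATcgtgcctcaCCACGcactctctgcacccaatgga
Hsp90b1, chr10:86705618-86705676, minus strand: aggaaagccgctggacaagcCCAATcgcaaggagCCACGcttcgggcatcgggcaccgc
Calr, chr8:84847055-84847113, plus strand: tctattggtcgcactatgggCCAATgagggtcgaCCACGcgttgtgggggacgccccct
Canx, chr11:50325780-50325838, minus strand: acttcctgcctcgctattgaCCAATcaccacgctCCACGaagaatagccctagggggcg
Pdia6, chr12:17266471-17266529, plus strand: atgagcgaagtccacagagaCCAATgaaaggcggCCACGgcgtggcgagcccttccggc
Dnajc3, chr14:118937807-118937865, plus strand: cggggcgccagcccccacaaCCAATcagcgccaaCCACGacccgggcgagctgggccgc
Creld2, chr15:88819500-88819558, minus strand: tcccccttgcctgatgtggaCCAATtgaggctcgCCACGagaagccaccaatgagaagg
Syvn1, chr19:6046512-6046570, plus strand: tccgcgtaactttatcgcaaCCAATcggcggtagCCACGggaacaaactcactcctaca
Derl3, chr10:75893222-75893280, minus strand: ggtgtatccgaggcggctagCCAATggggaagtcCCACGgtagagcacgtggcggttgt
Herpud1, chr8:94386357-94386407, plus strand, ERSE-II: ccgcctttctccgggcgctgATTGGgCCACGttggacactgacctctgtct

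The matches began between 44 bases (Syvn1) and 212 bases (Hsp90b1) upstream of the start. No member held the XBP1 and ATF6 core TGACGTGG, which 0.676% of all windows held. The tonicity-responsive element bound by NFAT5 was searched by its consensus. It was matched in 1 member, Dnajb9, against 4.96% of all windows. A match is a run of letters and does not show that a factor binds there.

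Before the values, 3 facts about the arrays bear on them. The Nfat5 probe set read 7.74 and 8.19 in wild-type isotonic and hypertonic cells and 8.03 and 8.24 in the cells labelled as knockout, so it does not check the label, and these cells are called knockout-labelled. The knockout-labelled hypertonic array stood apart, with correlations of 0.979 to 0.984 to the other 3 arrays, which correlated at 0.985 to 0.989 among themselves. Of 10 fibroblast markers 8 were above the dim limit on every array, while decorin (Dcn) and lumican (Lum) were below it on all 4, as were all 5 endothelial markers. Of 5 markers each, 3 or 4 epithelial, 0 or 1 macrophage and 1 plasma cell marker were above it, depending on the array. The dim limit is the median of an array's one-gene probe sets, about 5.41, below which background and expression mix. In a bulk sample, fewer cells of a type and less RNA per cell cannot be told apart.

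By their mean over the 4 arrays, 32 of the 33 members lay above the dim limit; Derl3, a degradation gene of specialised secretory cells, did not. All counts below take all 33 genes. The comparison set is the 9923 genes above the dim limit by the same mean. A gene was counted as different at 1.5-fold, 0.585 on the log2 scale. The error that could be gauged is that between probe sets of the same gene on an array. The 442 genes used had 2 probe sets above the dim limit. Their differences between arrays had an SD of 0.15 to 0.21 per probe set, depending on the comparison. That spread does not include variation between cultures.

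In wild-type cells the first question is how these genes read after 20 hours of hypertonic medium. Xbp1, the transcription factor of the IRE1 arm, was 1.68-fold lower and alone passed the 1.5-fold limit. The main lumenal Hsp70, Hspa5 (BiP), was 1.45-fold lower, the co-chaperone gene Sdf2l1 1.39-fold and the Hsp70-related Hyou1 1.37-fold, none of them reaching it. The other 29 members lay within 1.25-fold of their isotonic level. The median log2 difference of the members was -0.07, against -0.03 over all genes, and 24 of 33 were below 0, against 54.2% of all genes.

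Xbp1 alone was at least 1.5-fold lower, 1 of 33 against 3.15% of all genes, and no member was at least 1.5-fold higher, against 3.68%. Both counts are near the background. Xbp1 read 8.59 in isotonic and 7.84 in hypertonic wild-type cells, and 8.17 and 7.34 in knockout-labelled cells. Both hypertonic arrays lay below both isotonic arrays. The probe set gives 1 value and does not separate the spliced from the unspliced messenger.

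Hspa5 showed the same order, with signals of 11.54 and 11.01 in wild-type isotonic and hypertonic cells and 11.33 and 10.79 in knockout-labelled cells. Its log2 difference was -0.54 in either genotype. For Hyou1 the signals were 8.95 and 8.49 in wild-type and 8.76 and 8.36 in knockout-labelled cells. Sdf2l1 read 8.51 and 8.04 in wild-type and 8.66 and 8.24 in knockout-labelled cells. For all of these genes the hypertonic signal was below both isotonic signals, and the genotypes differed less than the media did. Among the 9923 genes, the wild-type differences of Xbp1, Hspa5, Sdf2l1 and Hyou1 lay at percentiles 1.35, 4.19, 5.61 and 6.05. Their knockout-labelled differences lay less far out, at percentiles 5.13, 14.2, 20.1 and 20.7 in the same order.

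**Figure D1:**
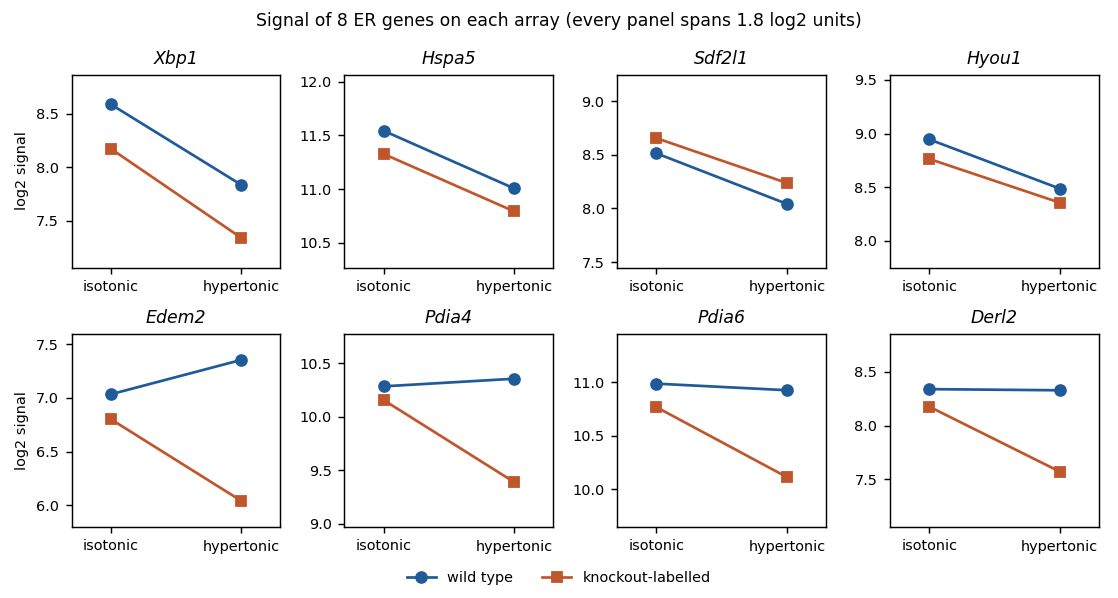
Log2 signal (vertical axis) of 8 ER genes in isotonic and hypertonic medium (horizontal axis), 1 point per array, circles for wild-type and squares for knockout-labelled cells, with lines joining the arrays of a genotype. In the upper row Xbp1, Hspa5, Sdf2l1 and Hyou1 are lower in hypertonic medium in both genotypes; in the lower row Edem2, Pdia4, Pdia6 and Derl2 are lowest on the knockout-labelled hypertonic array.

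The remaining chaperone genes moved little in wild-type cells. Creld2 and Manf, which encode secreted ER stress proteins, had log2 differences of -0.26 and -0.16. The J-domain co-chaperone genes Dnajb9, Dnajb11, Dnajc3 and Dnajc10 lay between -0.09 and 0.13. Hsp90b1 (GRP94) differed by -0.05, and the lectin chaperone genes Calr and Canx by -0.11 and -0.07. Hspa13, a microsomal Hsp70 relative, differed by 0.20.

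Disulphide isomerase genes were the role group with the most members above 0 in wild-type cells, 4 of 6, beside 4536 of all 9923 genes. Pdia3, which acts on glycoproteins with the lectins, was highest at 0.24, followed by P4hb (PDI) at 0.19. Pdia4 at 0.07 and Erp44 at 0.04 lay within the spread between probe sets. Pdia4 has a second, dimmer probe set that disagreed in this comparison. It read 6.09 and 5.31, the latter below the dim limit, a difference of -0.78. The brighter probe set read 10.28 and 10.35. Averaging the probe sets of each gene put 3 of the 6 isomerase genes below 0, with a median of -0.01.

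Of the sensors, Atf6 differed by -0.22, Ern1 by -0.07 and Eif2ak3 by -0.00. Among the 9 degradation genes, Edem2, which trims mannose from misfolded glycoproteins, was 1.25-fold higher. Edem3 differed by 0.14 and the other 7 by -0.20 to -0.01. Those 7 were Herpud1, Derl3, Edem1, Syvn1, which encodes the ubiquitin ligase HRD1, Derl1, Sel1l and Derl2. Sec61b, a translocon subunit, differed by 0.09.

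The same contrast in knockout-labelled cells gave lower values for more members. Of 33 genes, 28 were below 0, against 61.2% of all genes, and the median was -0.26, against -0.09. At least 1.5-fold lower were 5 members, against 11.9% of all genes, which is near the background, and none was at least 1.5-fold higher, against 3.47%. The 10 fibroblast markers moved in the same array pair, with a median of -0.35 and 7 below 0. Among those 7 were Col1a2 (-1.20), Col1a1 (-0.84) and S100a4 (-0.58). The 3 above 0 were Thy1 (0.39) and, both dim, Dcn (0.42) and Lum (0.08). In wild-type cells the median of the 10 markers was 0.17, with 2 below 0, Thy1 (-0.53) and the dim Lum (-0.26). The part of the markers in the members' values was not tested. The 5 members at least 1.5-fold lower were Xbp1 (1.78-fold lower), Edem2 and Pdia4 (each 1.70-fold), Pdia6 (1.57-fold) and Derl2 (1.52-fold). No member was 2-fold lower in either genotype's response, against 2.96% of all genes in knockout-labelled and 0.393% in wild-type cells.

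The scaling of this array pair matters for the count. As deposited, 344 genes were at least 1.5-fold higher and 1179 lower, and quantile normalization changed this to 548 and 803. With that normalization the members' median was -0.17, against 0.01 over all genes, 23 of 33 were below 0, and Xbp1, Edem2 and Pdia4 alone stayed past 1.5-fold.

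All 6 disulphide isomerase genes were below 0 in knockout-labelled cells as deposited, with a median of -0.44; after quantile or cyclic loess normalization or centring P4hb was not, leaving 5. Pdia4 read 10.28 and 10.35 in isotonic and hypertonic wild-type cells and 10.16 and 9.39 in knockout-labelled cells. The first 3 arrays were close together and the fourth stood below them. Its dimmer probe set gave a knockout-labelled difference of -0.79 beside -0.76. That probe set read 5.15 and 4.36 there, below the dim limit, so it adds little. Pdia6 read 10.98, 10.92, 10.77 and 10.11 in the same order. Pdia5, Erp44 and Pdia3 had differences of -0.47, -0.41 and -0.23, and P4hb of -0.03.

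The lumenal chaperone genes other than Dnajb9 were also below 0 as deposited, 10 of 11 with a median of -0.41; the scaling alternatives left 9, with Dnajb11 crossing 0. Hsp90b1 read 11.91, 11.86, 12.10 and 11.57 in the same order of arrays, with a knockout-labelled difference of -0.53. Hspa13 and Manf had differences of -0.43 each, Sdf2l1 of -0.42, Hyou1 of -0.41 and Dnajc3 of -0.30. Creld2, Dnajc10 and Dnajb11 lay between -0.24 and -0.07. Dnajb9, encoding a J-domain protein that binds IRE1, differed by 0.15. The lectin genes Calr and Canx differed by -0.09 each.

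Degradation genes were split in knockout-labelled cells. Edem2 read 7.03, 7.35, 6.80 and 6.04, and Derl2, a channel component, read 8.34, 8.33, 8.18 and 7.57. In both genes the knockout-labelled hypertonic array was the lowest by more than the spread of the other 3. Sel1l, the partner of HRD1, differed by -0.50 and Edem1 by -0.40, while Edem3 (-0.12), Herpud1 (-0.04) and Derl1 (-0.02) lay within the spread between probe sets. The HRD1 gene Syvn1 differed by 0.26 and the dim Derl3 by 0.16. Among sensors, Eif2ak3 had the highest difference of all members, 0.31, with Ern1 at 0.06 and Atf6 at -0.05. Sec61b differed by -0.26, and its 3 probe sets gave -0.27, -0.26 and -0.24.

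**Figure D2:**
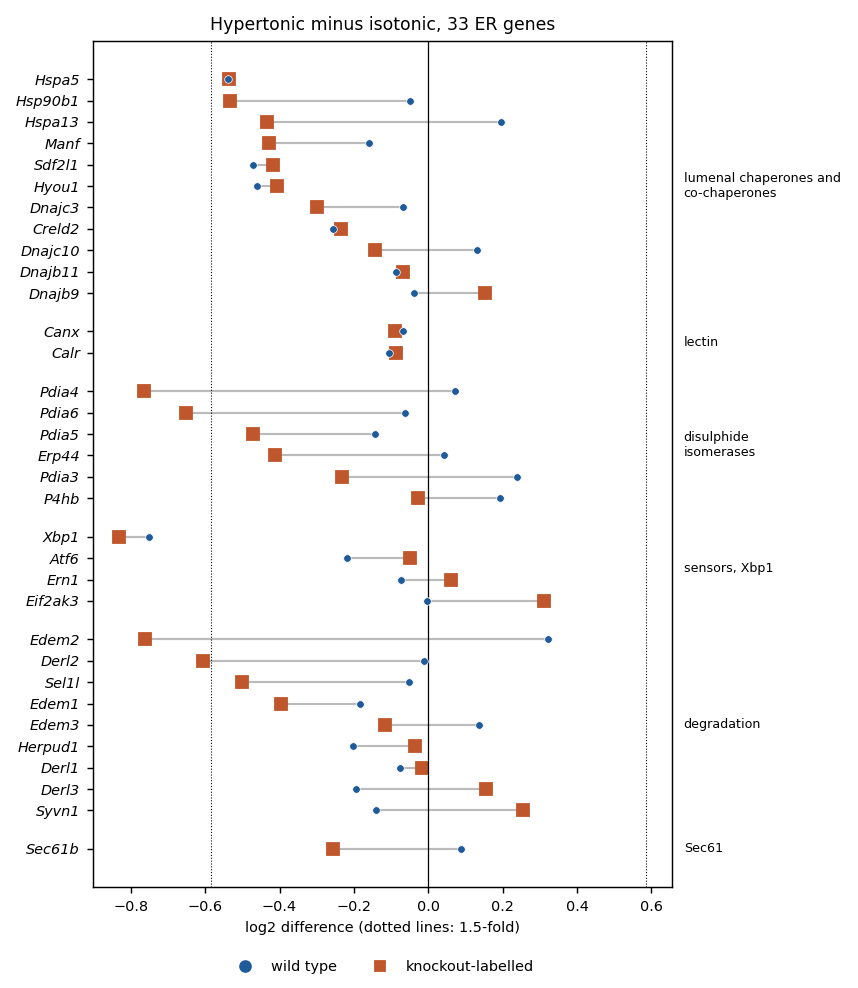
Log2 difference, hypertonic minus isotonic (horizontal axis), for the 33 genes grouped by role (vertical axis), with circles for wild-type and squares for knockout-labelled cells; each symbol is 1 array minus another. Xbp1 lies past the dotted 1.5-fold line in both, and Pdia4, Pdia6, Edem2 and Derl2 lie past it for knockout-labelled cells alone.

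The responses of the genotypes share no array and can be set side by side. Past the spread between probe sets in both, 7 members were lower: Hspa5, Hyou1, Sdf2l1, Manf, Creld2, Xbp1 and Edem1, against 12.9% of all genes. In knockout-labelled cells alone 9 were lower: Hsp90b1, Dnajc3, Pdia4, Pdia5, Pdia6, Erp44, Sel1l, Derl2 and Sec61b, against 17.4%. No member was higher in both, against 5.42%, and Hspa13, Pdia3 and Edem2 were higher in wild-type and lower in knockout-labelled cells, against 10.4%. Across the 33 genes the responses had a Pearson's r of 0.15 and a Spearman's rho of -0.02; the genes share the 4 arrays and are not independent.

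Subtracting the wild-type from the knockout-labelled response gave a median of -0.21 over the members, against -0.06 over all genes, and 19 of 33 were below 0, against 56.2%. At least 1.5-fold negative were 5 members, against 15.1% of all genes, which is near the background. No member was as far positive, against 6.96%. The most negative was Edem2 at -1.08, the 1 member past 2-fold, against 5.28% of all genes, followed by Pdia4 (-0.84), Hspa13 (-0.63), Derl2 (-0.60) and Pdia6 (-0.59). For Pdia4 the dimmer probe set gave -0.01, so this difference rests on the brighter one. The dimmer one was above the dim limit on the wild-type isotonic array alone. All 6 disulphide isomerase genes were negative, also after quantile, loess and centring alternatives. Xbp1 (-0.08), Hspa5 (0.00), Hyou1 (0.05) and Sdf2l1 (0.05) differed between the genotypes' responses by less than the spread between probe sets. That holds for the knockout-labelled arrays in their labelled order, which the Nfat5 signal does not check; with those 2 arrays exchanged the values are 1.58, 1.07, 0.87 and 0.89. After quantile or loess normalization or centring, Pdia4 and Edem2 alone stayed past 1.5-fold.

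Members with and without an ERSE or ERSE-II match were then set side by side. In wild-type cells all 11 with a match were below 0, against 54.2% of all genes, with a median of -0.11, and 9 of the 17 without were, with a median of -0.00. The 11 stayed below 0 after quantile and loess normalization, but 7 of them lay within the spread between probe sets. The other 4 were Hspa5, Creld2, Herpud1 and Derl3. Derl3 was below the dim limit on all 4 arrays, where that spread was not measured. In knockout-labelled cells the order of the medians was the opposite, -0.09 with a match (9 of 11 below 0) and -0.40 without (14 of 17), beside 61.2% of all genes below 0. The gene with the largest wild-type difference, Xbp1, had no match in its window, and of the genes whose sequences are printed above only Hspa5 was lower by more than 1.3-fold in wild-type cells.

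The genotypes were next compared within each medium; these differences use the same arrays as the responses above. In isotonic medium the members lay around 0, with a median of -0.04 and 17 of 33 below 0, against 45.1% of all genes. Pdia5, a disulphide isomerase gene, was at least 1.5-fold lower in knockout-labelled cells, 1 member against 3.4% of all genes, near the background. No member was 2-fold lower, against 1.09%. None was at least 1.5-fold higher, against 4.53%. Pdia5 read 8.94 in isotonic and 8.80 in hypertonic wild-type cells, and 8.28 and 7.81 in knockout-labelled cells, so both knockout-labelled arrays lay below both wild-type arrays. Hspa13 had the highest difference, 0.45, followed by Sec61b at 0.38, Erp44 at 0.37 and Dnajb9 at 0.32. Xbp1 (-0.41), Herpud1 (-0.35) and Syvn1 (-0.31) were the lowest after Pdia5.

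In hypertonic medium 6 members were at least 1.5-fold lower in knockout-labelled than in wild-type cells, against 14.6% of all genes, near the background. None was higher by that much, against 8.25%. Below 0 were 22 of 33, against 51.1%. Edem2 was 2.49-fold lower, the 1 member past 2-fold, against 6.04% of all genes. Then came Pdia5 (1.98-fold), Pdia4 (1.95-fold), Pdia6 (1.75-fold), Derl2 (1.69-fold) and, just past the limit, Sel1l (log2 difference -0.59). Sel1l was at -0.57 after quantile normalization and -0.58 after centring, inside the limit, which leaves 5 members. All 6 disulphide isomerase genes were below 0 as deposited and under each scaling alternative, with a median of -0.63; the median of all genes was -0.01. The dimmer Pdia4 probe set gave -0.95, beside -0.96 for the brighter one, but its values here, 5.31 and 4.36, were both below the dim limit. Members on the other side of 0 were Dnajb9 (0.51), Atf6 and Derl3 (0.29 each), Dnajb11 (0.27), Eif2ak3 (0.24), Sdf2l1 (0.20), Ern1 (0.17), Derl1 (0.12), Syvn1 (0.09), Sec61b (0.04) and Edem3 (0.01).

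Other values moved with this comparison. Of the 10 fibroblast markers 8 were at least 1.5-fold lower in knockout-labelled hypertonic cells, against 14.6% of all genes, with a median of -1.48. The markers also differed in isotonic medium, with a median of -0.47 and 9 below 0. There 4 were at least 1.5-fold lower in knockout-labelled cells, against 3.4% of all genes. Col1a1 read 12.57 in wild-type and 10.93 in knockout-labelled hypertonic cells. Its product, type I collagen, is a client of the prolyl hydroxylase of which P4hb encodes a subunit. Vim, another marker, differed by -0.07. The part of the cell makeup or of the collagen load in the members' differences was not tested. Over the 4 arrays, 20 of the 33 members were lowest on the knockout-labelled hypertonic array, against 38.4% of all genes.

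**Figure D3:**
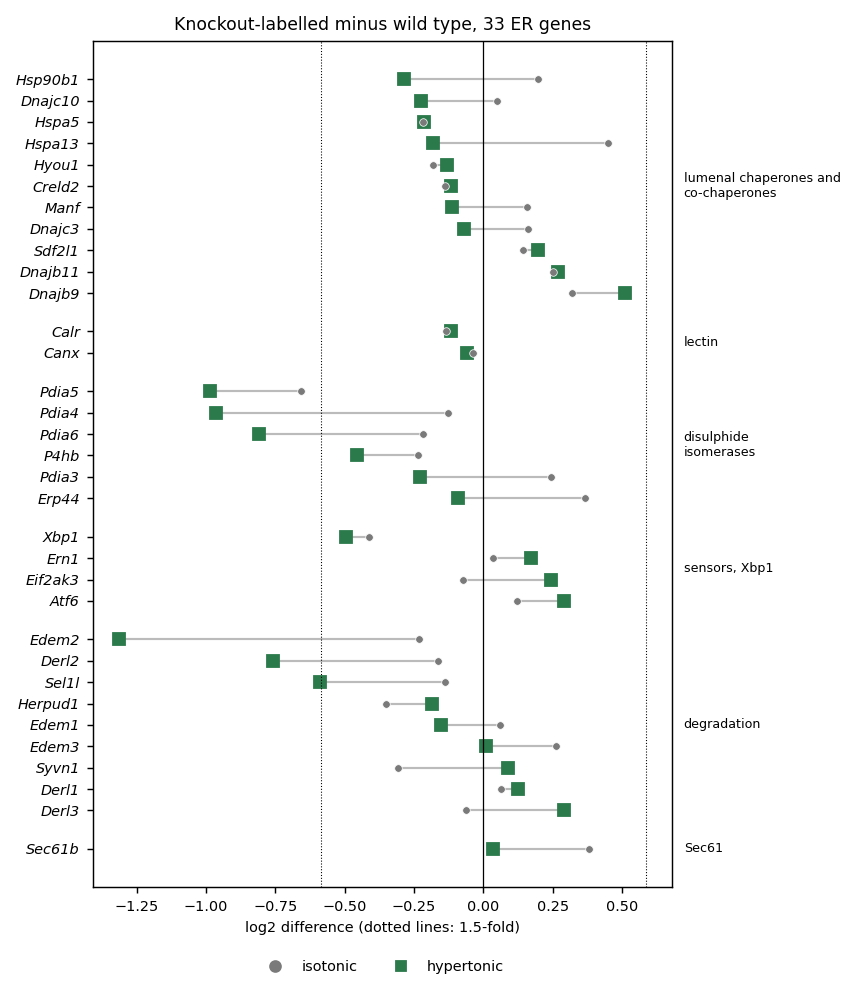
Log2 difference, knockout-labelled minus wild type (horizontal axis), for the 33 genes grouped by role (vertical axis), with circles for isotonic and squares for hypertonic medium; each symbol is 1 array minus another. Edem2 and the disulphide isomerase genes Pdia4, Pdia5 and Pdia6 lie farthest to the left in hypertonic medium, and Pdia5 alone passes the dotted 1.5-fold line in isotonic medium.

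Neighbouring genes of the pathway were taken from lists fixed by role. Targets of the PERK arm, 13 genes, had a median of -0.31 in wild-type cells, with 4 at least 1.5-fold lower, against 3.15% of all genes, and 1 higher, against 3.68%; quantile normalization or centring left 3 lower and loess 2. Atf3, a stress transcription factor gene, differed by -1.13, and Nupr1, another target, by 0.85. In knockout-labelled cells their median was -0.03, turning above 0 under all 3 scaling alternatives (0.12, 0.07 and 0.07), with none at least 1.5-fold lower, against 11.9%, and 1 higher, against 3.47%: Bbc3 at 0.79, a gene that was dim on the other 3 arrays. Among 13 measured genes that regulate the response, none passed 1.5-fold in wild-type cells and 2 were lower in knockout-labelled cells, near the 11.9% of all genes, among them Creb3l2, an ER-anchored transcription factor gene, at -1.12.

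The next lists are read against the same 11.9% of all genes at least 1.5-fold lower in knockout-labelled cells. In wild-type cells the shares were 3.15% lower and 3.68% higher. The 11.9% holds for the values as deposited, 1179 of 9923 genes. It does not apply to counts after rescaling, where 803 genes were lower with quantile normalization and 938 with cyclic loess. The share after centring was not computed. Of 32 genes of the translocon, signal peptidase and oligosaccharyltransferase, none passed 1.5-fold in wild-type cells and 8 were lower in knockout-labelled cells (median -0.34), with Krtcap2 lowest at -0.85; quantile normalization or centring left 3 and loess 4. Of 25 genes of COPII vesicles and ER exit, none passed in wild-type and 4 were lower in knockout-labelled cells (median -0.41), near the background, among them the KDEL receptor gene Kdelr3 at -1.04; quantile, loess and centring left 2, 1 and 1. Of 40 other folding factors, 1 was lower in wild-type cells, near the background, the prolyl isomerase gene Fkbp11 at -0.99. In knockout-labelled cells 9 were lower, and 6, 5 and 5 after quantile, loess and centring, with Fkbp7 (-1.51) and Txndc12 (-0.91) lowest. Of 27 other degradation factors, 1 was higher in wild-type cells, near the background, the lectin gene Erlec1 at 0.80. In knockout-labelled cells 4 were lower, near the background, and 2 under each alternative, with Ngly1, which removes glycans, at -0.97.

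Genes of procollagen modification in the ER, not all of them enzymes, had the lowest median of these lists in knockout-labelled cells, -0.45 over 15 genes. In wild-type cells none of them passed 1.5-fold downward, against 3.15% of all genes. Upward 2 did, against 3.68%, P3h2 (0.78) and P3h4 (0.67). In knockout-labelled cells 5 were lower, as deposited and under each scaling alternative, and none higher, with Crtap at -1.18, the lysyl hydroxylase gene Plod2 at -1.14 and the prolyl hydroxylase subunit gene P4ha1 at -1.12. The 11 housekeeping genes had medians of 0.05 and 0.01 in the same comparisons, with none past 1.5-fold.

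**Figure D4:**
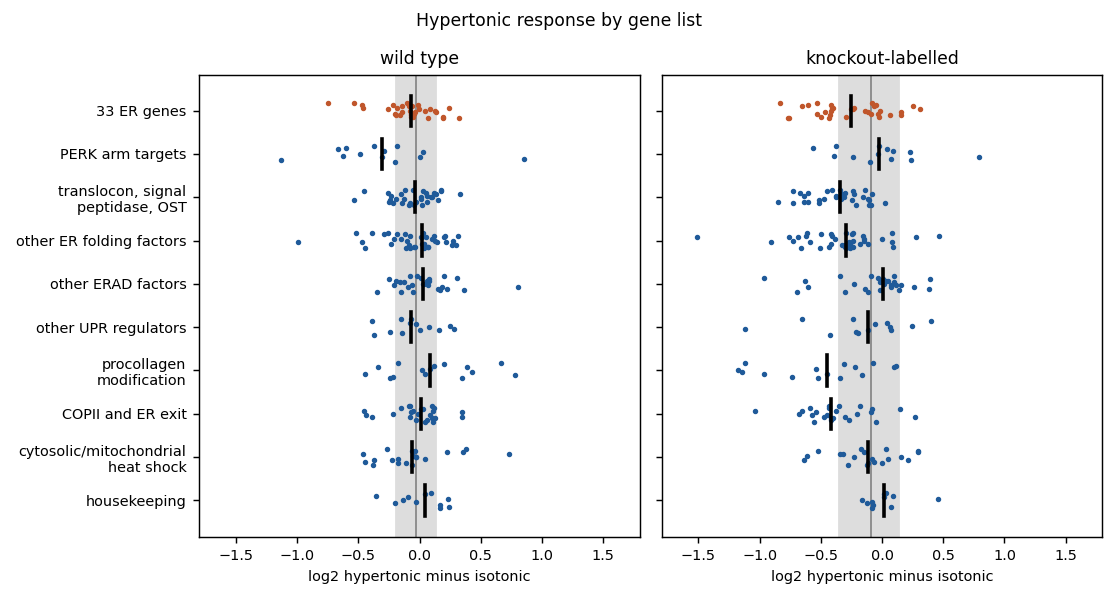
Log2 difference, hypertonic minus isotonic (horizontal axis), for the 33 genes and 9 other gene lists (vertical axis), wild type on the left and knockout-labelled on the right; each point is 1 gene, black bars are list medians, and the grey line and band are the median and the middle 50% of the 9923 genes. The members' median lies at -0.07 on the left and -0.26 on the right, beside -0.03 and -0.09 for all genes.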

How the data were processed

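Total RNA of mouse embryonic fibroblasts, pooled from 4 samples per condition, was hybridised to 1 array per group, per the labels' protocols and the design text. The authors deposited 1 log2 value per probe set and array; that scale was read from the values. MAS5 appears, without a version or role, in the submitters' processing notes. The sources used here do not say how background and array scale were handled. Values were used as deposited. Of 35557 probe sets, 21789 had 1 gene symbol in the platform annotation, 1621 had several and 12147 had none; the last 2 kinds were left out. For genes with several probe sets the one with the highest mean was used. Of the other list genes, 15 were not matched.

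Differences are between single arrays, so no test was made, and the number of arrays limits the precision. Members at least 1.5-fold different in any comparison, and the most different of each role, are given in full; from the other lists, genes past 2-fold and the 2 most different could be named. The members and lists were chosen with earlier results of these data known. The limit of 1.5-fold was also set at 2-fold. Counting and motif steps were tested on simulated data. Alternatives were quantile and cyclic loess normalization, centring, 3 limits on dim genes, the mean of probe sets, and the knockout-labelled arrays exchanged. Python 3.11.15 (pandas 2.3.3, numpy 2.4.6, scipy 1.17.1, matplotlib 3.10.9) was used, and limma 3.58.1 in R 4.3.3 for normalization.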

Additional observations from a re-analysis of the deposited data

Results flagged for a closer look

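In 3 members the genotypes' responses lay on opposite sides of 0, each past the spread between probe sets, higher in wild-type and lower in knockout-labelled hypertonic cells. Subtracting the wild-type from the knockout-labelled response gave -1.08 for Edem2, -0.63 for Hspa13 and -0.47 for Pdia3. With 1 array per group this difference was not tested, and 10.4% of all genes show the same pattern, a share near that of the members.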

How the results depend on the processing

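No paired analysis was possible because each group is 1 array, and for the same reason no replicate could be left out. Of 127 recomputed medians and counts of the members, 105 stayed within the spread between probe sets or within 1.5 times the count. Dropping members below the dim limit, by mean or on every array compared, removed Derl3 alone, so it could change these values little. Quantile normalization, cyclic loess and centring each lowered the count of members at least 1.5-fold lower from 5 to 3 in the knockout-labelled response and from 5 to 2 in the difference of responses. A limit of 2-fold left 0 lower in either response and in the isotonic genotype difference, and 1 in the hypertonic genotype difference and in the difference of responses. Exchanging the knockout-labelled arrays, whose labels the Nfat5 signal does not check, turned the members' median to 0.26 in the knockout-labelled response, 0.12 in the hypertonic genotype difference and 0.27 in the difference of responses, and moved it to -0.22 in the isotonic one. Lower members then number 0, 0, 0 and 9 in these comparisons, and higher members 5, 1 and 9 in the first 3. In the knockout-labelled response the sign alone turns, so its 5 higher members stand beside 11.9% of all genes. For the other exchanged comparisons the share of all genes was not computed, so their counts have no background to be read against. By construction the knockout-labelled responses turn to 0.83 for Xbp1, 0.76 for Pdia4 and Edem2, 0.65 for Pdia6 and 0.61 for Derl2, and the differences of responses to 1.58 for Xbp1, 1.07 for Hspa5, 0.89 for Sdf2l1, 0.87 for Hyou1, 0.24 for Hspa13, 0.69 for Pdia4, 0.71 for Pdia6, 0.44 for Edem2 and 0.62 for Derl2. The mean of probe sets moved Pdia4 alone, to -0.36 in the wild-type response, -0.54 in the isotonic genotype difference and -0.42 in the difference of responses. The scaling of the other gene lists was added after seeing the data. Among 307 recomputed values of single members past 1.5-fold in any comparison, 272 moved by less than the spread between probe sets. Many of these could not move. The limits on dim genes leave a single gene's value as it is, and the mean of probe sets changes only genes with several. Quantile normalization, cyclic loess and centring each kept 40 values within the spread. Exchanging the knockout-labelled arrays moved 22 values and reversed 10. Small differences near 0.15 are within the measurement error that the probe sets show, and variation between cultures was not measured.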

Other observations

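Heat shock proteins of the cytosol and mitochondria, 20 measured genes, moved less than the ER members in knockout-labelled cells, with a median hypertonic response of -0.12 there and -0.07 in wild-type cells; the difference between the lists was not tested. In wild-type cells 1 was at least 1.5-fold higher, against 3.68% of all genes, the Hsp110-related Hspa4l at 0.73. In hypertonic medium 2 of the 20 were at least 1.5-fold lower in knockout-labelled than in wild-type cells, against 14.6% of all genes. They were Hspa4l (-1.31) and the inducible Hsp70 gene Hspa1a (-1.03). Another 2 were higher, against 8.25%: Hsf2, a heat shock transcription factor gene (0.88), and the small heat shock protein gene Hspb1 (0.83). These counts are near the background. The same genes also differed between genotypes in isotonic medium, Hsf2 by 0.81, Hspb1 by 0.54, Hspa1a by -0.47 and Hspa4l by -0.23.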
